A study of Mus musculus with 4 samples.

Results

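The Ly6 gene cluster of mouse chromosome 15 was represented by 8 genes, Ly6a, Ly6c1, Ly6c2, Ly6d, Ly6e, Ly6g, Ly6i and Ly6k, and by the accessible chromatin regions that had one of them as the nearest protein-coding gene. Of the 91266 accessible regions of the series, 29 met this rule. They were assigned to 7 of the 8 genes, and Ly6k was the nearest gene to none. Distance was taken to the whole span of a gene, and ties went to the gene with the nearer end.

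Accessibility was measured by ATAC-seq, in which a transposase cuts and tags open chromatin, in cultured natural killer (NK) cells from the spleen of wild-type (WT) C57BL/6 mice. Cells were kept for 72 hours in a high dose (HD) or a low dose (LD) of interleukin-15, the cytokine that NK cells need for survival and growth, with 2 biological replicates per dose and about 75000 cells per replicate. The labels give neither concentration, nor the age or sex of the mice, nor whether animals were pooled, and no untreated cells are among the samples. The data analysed were a list of all regions and the up and down lists in which the authors placed regions that differed between the doses. All hold positions only, so that depth, signal per sample and the spread between replicates are unknown and no test of the doses could be made. Which dose is the reference for up and down is not stated, and both lists are called by their deposited names.

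Ly6 genes encode small, cysteine-rich proteins that are mostly held at the cell surface by a glycosylphosphatidylinositol anchor. Several are used as surface markers of leukocytes and their progenitors, and some are induced by interferons. The genes arose by tandem duplication, so that neighbouring copies are similar in sequence, and in such families a short read can fit more than one copy.

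None of the 29 regions was in either list. The count was 0 of 29 in the up list, where 4.21% of all regions were called, and 0 of 29 in the down list, where 1.4% were called. For both lists together the background was 5.61%. A count of 0 among 29 allows a share of up to 10.3%, which is above the background, so a set of this size cannot show a listed share below that of all regions. At gene level, 0 of the 7 genes with a region had a listed one, against 20.1% of the 16393 protein-coding genes with a region. The 29 regions are not replicates, and neighbouring regions are not independent.

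The cluster itself held more accessible regions per 100 kb than chromosome 15 as a whole. From the lower end of Ly6d to the upper end of Ly6g (chr15:74762056-75159128, build mm10) it spans 397.1 kb and holds 37 regions, or 9.32 per 100 kb. Chromosome 15 as a whole held 3.67 regions per 100 kb and all chromosomes 3.44. These densities are per length and were not adjusted for the number of protein-coding genes, of which the interval holds 15. The interval also holds 7 other protein-coding genes (Ly6g6g, Gml, Gml2, Cyp11b1, Cyp11b2, Ly6m and Ly6a2), and some of the 37 regions were nearest to one of those. Of the 37, 0 were listed. A Ly6 region had a median of 5 other regions within 20 kb, against 4 for chromosome 15 and 3 for all regions.

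**Figure D1:**
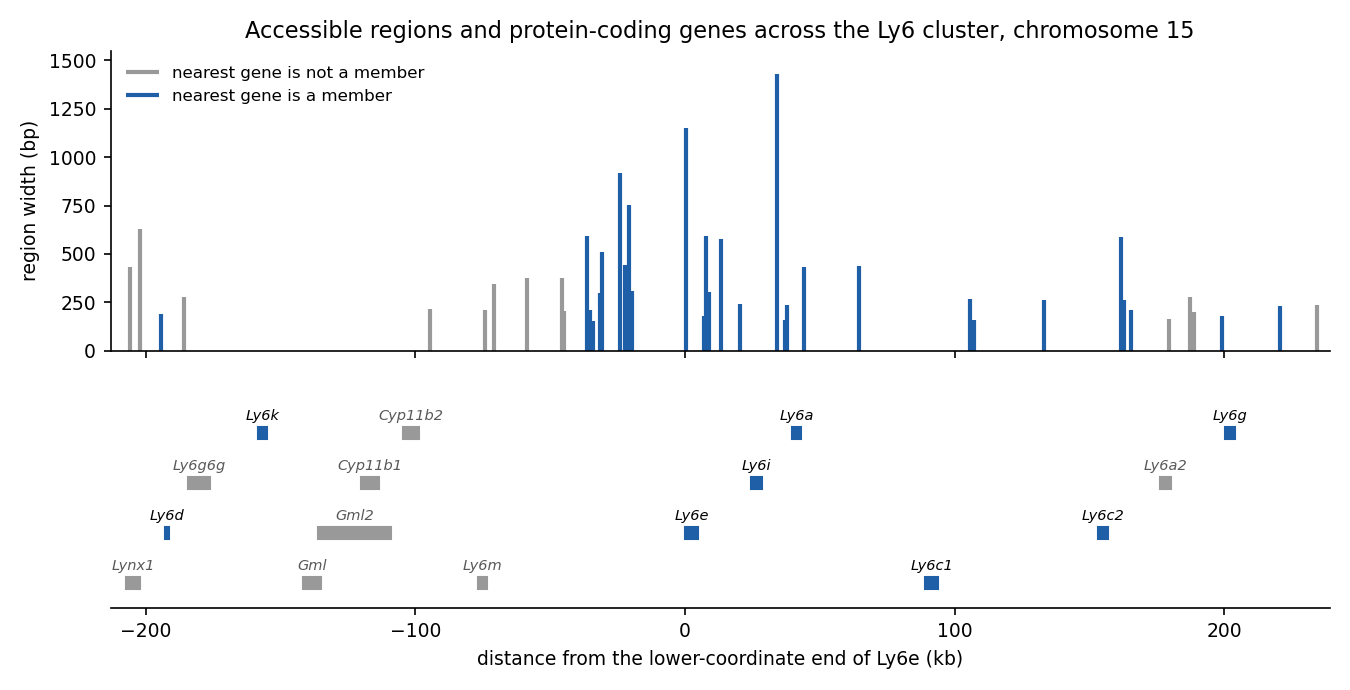
Each vertical line is an accessible region, placed at its centre by distance in kb from the lower-coordinate end of Ly6e, with its width in bp as the height. The bars beneath show protein-coding genes, members in blue and others in grey. Regions crowd around Ly6e, Ly6i and Ly6a and are sparse from Ly6k to Cyp11b1.

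Regions were spread unevenly over the genes. Ly6e, which encodes a surface protein also called TSA-1 or Sca-2, had 14 of the 29 regions and 57.0% of their summed width (6993 of 12270 bp). Ly6a and Ly6c2 had 4 regions each. Ly6c1, Ly6g and Ly6i had 2 each, and Ly6d had 1. For comparison, the median over all protein-coding genes with a region was 3, and 93.3% of all 21774 protein-coding genes had fewer regions than Ly6e. Without a region of its own, Ly6k was like 24.7% of protein-coding genes.

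Ly6e (chr15:74955025-74959904) was the only member overlapped by an accessible region. That region was 1153 bp wide at chr15:74954846-74955998 and covered the lower end of the gene. The gene table gives no strand, and Ly6e has no entry in the promoter table used here, so whether this end is the start of the gene was not determined. A further 4 regions of 180 to 595 bp lay above the upper end, at 1938 to 8196 bp from it. The remaining 9 lay below the gene in a stretch of 17.2 kb (chr15:74918392-74935548), between 19.5 and 36.0 kb from it.

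This group of 9 regions below Ly6e was singled out after the positions were seen. Its regions were 154 to 918 bp wide, with a median of 444 bp, and the widest was chr15:74930373-74931290. The long non-coding RNA gene Gm39556 overlapped 4 of them and the pseudogene Gm6610 overlapped 2. Of all regions, 1.25% lay in groups of 9 at least as tight. Of those 1145 regions, 47 were listed (4.10%, 95% Wilson interval 3.10 to 5.42%), beside 5.61% of all regions. Regions of a group are neighbours and not independent, so this interval is too narrow to show a difference from 5.61%. The 14 regions of Ly6e included 0 listed ones, while 84 of the 137 genes with exactly that number of regions (61.3%, 95% Wilson interval 53.0 to 69.1%) had at least 1. Ly6e thus belonged with the 53 genes of that size that had none.

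Ly6a and Ly6i lie next to Ly6e. Ly6a (chr15:74994877-74998031) encodes Sca-1, a marker of blood stem cells and of activated lymphocytes. Its nearest region, 432 bp wide at chr15:74998916-74999347, began 885 bp above the upper end of the gene. The others measured 157 and 238 bp, at 2645 and 1831 bp below the gene, and 436 bp, at 21.4 kb above it. Apart from the Ly6e region over the gene, the 432 bp region of Ly6a was the only one of the 29 within 1000 bp of an end of a protein-coding gene.

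The widest of the 29 regions was assigned to Ly6i (chr15:74979534-74983434). It measured 1431 bp at chr15:74988299-74989729, lay 4865 bp above the gene and overlapped the pseudogene Gm8000. This region lies between Ly6i and Ly6a and is only slightly farther from Ly6a. Only 2.21% of all regions were as wide or wider. The other region of Ly6i was 240 bp wide and lay 3994 bp below the gene. Each region assigned to Ly6i or Ly6a, and 1 assigned to Ly6e, lay within the long non-coding RNA gene Gm28068 or overlapped it. The span of that gene covers Ly6i and Ly6a.

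Ly6c1 and Ly6c2 encode the near-identical forms of Ly6C, a surface marker of inflammatory monocytes, of memory T cells and of mature NK cells. Ly6c1 (chr15:75044018-75048920) had regions of 266 and 160 bp, at 11.7 and 13.2 kb above the gene, and none within 10 kb. The second of them overlapped the pseudogene Gm5960. Ly6c2 (chr15:75108161-75112066) had 3 regions above the gene, at 4370, 5496 and 8088 bp, with widths of 588, 263 and 210 bp. Its remaining region, 263 bp wide, lay 19.8 kb below. Ly6g (chr15:75155261-75159128), the gene of the neutrophil marker recognised by antibodies to Gr-1, had a region of 177 bp at 1129 bp below the gene and one of 229 bp at 16.5 kb above it.

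Start sites in the RefSeq promoter table (GRCm38.p6) were available for 3 members, Ly6c1, Ly6c2 and Ly6g. No accessible region overlapped their windows of 250 bases before to 50 bases after a start, whereas 55.8% of the 17492 protein-coding genes with a window had a region on one. That share is not matched for length, and the members are at most 5 kb long. Within 1000 bp of an end, 35.2% of genes up to 5 kb had a region, against 60.9% of all genes. The nearest region was 11.8 kb from the start of Ly6c1, 4465 bp from that of Ly6c2 and 1129 bp from that of Ly6g. The 250 bases before the start farthest upstream are printed to show how alike these copies are, together with those of the neighbour Ly6a2. For Ly6c1 and Ly6c2 that start, 75048837 and 75111971, lies inside the annotated gene, so some of the printed bases are within the gene. For Ly6g and Ly6a2 it is the end of the gene, and the printed sequences lie outside. All are written 5′ to 3′ on the strand of the gene. In Ly6c1 and Ly6g, the capitals mark the longest stretch that both share, of 37 bases. In Ly6c2 and Ly6a2, they mark the longest stretch shared by that pair, of 142 bases. The positions are chr15:75048838-75049087 (minus strand) for Ly6c1, chr15:75155011-75155260 (plus strand) for Ly6g, chr15:75111972-75112221 (minus strand) for Ly6c2 and chr15:75135129-75135378 (minus strand) for Ly6a2.
Ly6c1: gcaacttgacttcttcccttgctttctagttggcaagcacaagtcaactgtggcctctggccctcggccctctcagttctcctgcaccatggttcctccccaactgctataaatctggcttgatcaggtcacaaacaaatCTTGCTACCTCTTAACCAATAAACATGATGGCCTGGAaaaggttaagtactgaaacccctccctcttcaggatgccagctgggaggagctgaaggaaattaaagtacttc
Ly6g: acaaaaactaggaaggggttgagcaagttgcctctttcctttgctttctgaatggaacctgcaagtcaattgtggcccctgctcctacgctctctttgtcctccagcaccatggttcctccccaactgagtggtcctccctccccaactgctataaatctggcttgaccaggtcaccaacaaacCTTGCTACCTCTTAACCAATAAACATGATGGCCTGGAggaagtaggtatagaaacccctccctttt
Ly6c2: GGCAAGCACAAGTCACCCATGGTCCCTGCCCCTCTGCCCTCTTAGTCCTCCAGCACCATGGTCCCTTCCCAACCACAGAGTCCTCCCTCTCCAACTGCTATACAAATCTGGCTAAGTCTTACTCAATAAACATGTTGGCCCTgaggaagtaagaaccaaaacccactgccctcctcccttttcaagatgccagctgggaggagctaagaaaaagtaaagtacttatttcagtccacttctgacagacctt
Ly6a2: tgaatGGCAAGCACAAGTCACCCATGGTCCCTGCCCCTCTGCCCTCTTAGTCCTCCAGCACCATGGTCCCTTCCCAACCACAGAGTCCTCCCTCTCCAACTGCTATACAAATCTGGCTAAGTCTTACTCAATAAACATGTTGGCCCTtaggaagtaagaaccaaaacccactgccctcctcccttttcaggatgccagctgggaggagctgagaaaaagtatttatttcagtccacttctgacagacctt

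Over these 250 bases, Ly6c2 and Ly6a2 were identical at 94.5% of all alignment columns (241 of 255), with gaps counted as not identical. The figure was lower for the pairs among the members. It was 58.5% for Ly6c1 and Ly6g (172 of 294 columns) and 57.7% for Ly6c1 and Ly6c2 (164 of 284). For Ly6c2 and Ly6g it was 46.9% (142 of 303). In each of these member pairs, the longest shared stretch begins at different distances from the start sites, so the windows are offset. Gaps from this offset lower the figures, which therefore do not measure how alike the overlapping bases are. Read length and the handling of reads that fit several places are not given in the sources used here. What part they had in the absence of regions from these windows was not tested.

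The windows of the 3 members were searched on both strands for 6 motifs. These were the STAT motif TTCNNNGAA, the interferon response motif (GAAA, any 2 bases, GAAA), the AP-1 motif TGANTCA, the ETS motif CCGGAAGT, the T-box motif AGGTGTGA and the RUNX motif TGTGGTTT. None was found in any window of Ly6c1, Ly6c2 or Ly6g. Among all 32851 windows of the table, the STAT motif was present in 8.30%, the AP-1 motif in 7.81%, the ETS motif in 3.89%, the interferon response motif in 3.44%, the RUNX motif in 1.78% and the T-box motif in 1.28%. The absence says only that these letters are not in these windows.

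Ly6d (chr15:74762056-74763567), a marker of B-lineage progenitors, had a single region of 187 bp at 1070 bp below the gene. Ly6k (chr15:74796874-74799968), known for its role in sperm, lay in a gap of 91.1 kb between consecutive regions that also holds Ly6g6g, Gml, Gml2, Cyp11b1 and Cyp11b2. The region nearest to Ly6k was 27.4 kb away. Of all gaps between consecutive regions, 3.91% were at least as long, and the median gap was 6.91 kb. A longer gap of 242.2 kb began above the last region assigned to Ly6g and a region assigned to Ly6g2, and holds Ly6g2 and Ly6f. Only 1.43% of gaps were as long or longer.

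Seen together, the members' regions lay mostly outside the genes. Of the 29, 1 (3.45%, 95% Wilson interval 0.611 to 17.2%) overlapped its nearest gene, against 61.1% of all regions. The median distance to the gene was 8.20 kb. All 8 members are at most 5 kb long. Of the 6414 regions assigned to genes of that length, 28.9% overlapped the gene. Counted by gene, 1 of 8 members was overlapped by a region, against 33.2% of the 4973 genes of that length. Within 1000 bp of a gene end lay 2 of the 29 regions (6.90%, 1.91 to 22.0%), against 17.1% of all regions. By gene, 2 of 8 members had a region this close to an end, against 35.2% of the 4973 genes up to 5 kb. Just outside this distance were the regions of Ly6d at 1070 bp and of Ly6g at 1129 bp.

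Assignment depended on which annotated genes were counted. When genes of every biotype were allowed, 9 of the 29 regions kept a member as the nearest gene, of which Ly6e and Ly6c2 had 3 each, Ly6g had 2 and Ly6d had 1. Ly6a, Ly6i and Ly6c1 then had none. Of the 29 regions, 11 overlapped a long non-coding RNA gene, 4 a pseudogene (1 of them both), 1 a protein-coding gene and 14 no annotated gene.

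The regions of the cluster had a median width of 299 bp (range 154 to 1431 bp), beside 400 bp for all regions and 387 bp for chromosome 15. The 95% binomial (order statistic) interval of the Ly6 median, 229 to 509 bp, includes both values. The interquartile range was 212 to 576 bp, inside which lay the medians of the up list (453 bp) and of the down list (537 bp). The Ly6e regions had a median of 476.5 bp and the 15 regions of the other members one of 240 bp. Regions under 200 bp numbered 6 of 29, and 10.6% of all regions were as narrow. The region of Ly6d measured 187 bp, and those of Ly6g 177 and 229 bp.

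**Figure D2:**
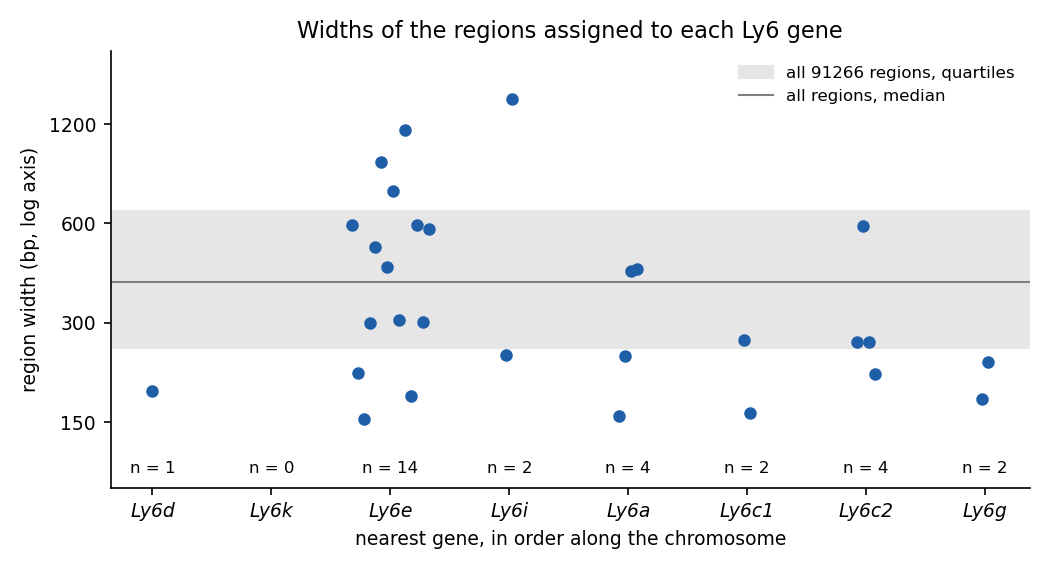
Each point is the width in bp (log axis) of an accessible region, placed above the gene to which it was assigned, with the genes in chromosome order. The grey band and line give the quartiles and median of all 91266 regions. Ly6e spans 154 to 1153 bp, while both regions of Ly6g and that of Ly6d lie below the band.

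The share of regions that were listed varied with their width. In 10 width classes with near-equal numbers of regions, 0.496% of the narrowest (150 to 196 bp) were listed, and 11.4% of those of 480 to 589 bp. The 4 classes from 326 to 732 bp, of which 9.80% were listed, held 8 of the Ly6 regions. The other 6 classes, of which 2.80% were listed, held 21. If each Ly6 region is given the listed share of its class, the mean is 4.47%, which stands for 1.30 of 29 regions. The observed number was 0.

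**Figure D3:**
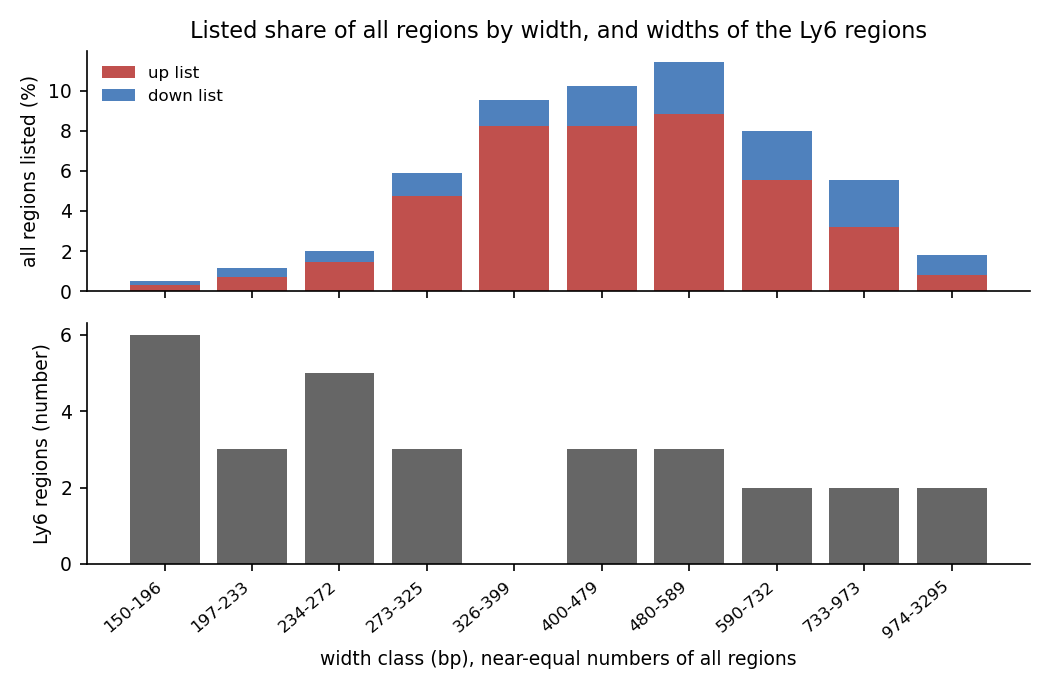
The upper bars give the percentage of all regions in the up list (red) and the down list (blue) for each of 10 width classes in bp, and the lower bars give the number of Ly6 regions in each class. The narrowest class holds the most Ly6 regions, 6 of 29, and has the lowest listed share.

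The unlisted stretch reached well beyond the cluster. The closest listed region below was an up region of 310 bp at chr15:74284518-74284827, 476.0 kb from the first Ly6 region, and its nearest gene was Adgrb1, which encodes an adhesion receptor. The closest above was an up region of 298 bp at chr15:75844449-75844746, 668.6 kb from the last, near the zinc finger gene Zc3h3. Between them lay 79 consecutive unlisted regions over 1.56 Mb. Of the 4456 stretches of unlisted regions that lie between listed ones, 104 (2.33%) had at least as many regions, with a median of 12 over all stretches, and 389 (8.73%) were at least as long. Long stretches hold many regions each, and 12.5% of all regions lay in one of this size or larger.

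Down regions were farther away than up regions. The closest were 7.35 Mb below the Ly6 regions (chr15:67409745-67410538, nearest to St3gal1) and 2.53 Mb above them (chr15:77705156-77705819, over Apol7e). The 10.3 Mb between these held 377 regions, of which 16 were up (4.24%). On chromosome 15 as a whole, 126 of 3695 regions were up (3.41%) and 72 were down (1.95%). Of all regions, 20.1% lay in stretches without a down region that were as rich in regions or richer.

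**Figure D4:**
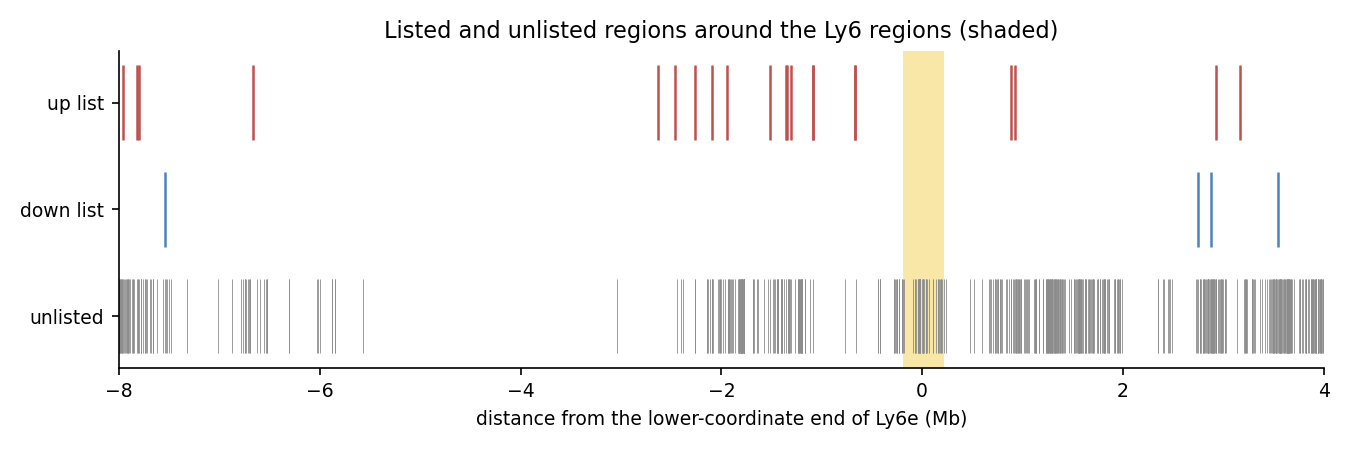
Ticks mark the up, down and unlisted regions of chromosome 15 by distance in Mb from the lower-coordinate end of Ly6e, and the shading covers the 29 Ly6 regions. No listed tick falls in the shading. The nearest up ticks lie 0.476 Mb below and 0.669 Mb above it, and the nearest down ticks 7.35 Mb below and 2.53 Mb above.

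Related genes were set beside the cluster as a description, with no test of a difference. A fixed list of 11 other family genes on chromosome 15 (Ly6f, Ly6g2, Ly6h, Ly6l, Ly6m, Gpihbp1, Lynx1, Lypd2, Psca, Slurp1 and Slurp2) had 11 regions, of which 5 belonged to Ly6m, 2 to Lynx1 and 0 were listed. The list is not complete: Ly6a2, with 3 regions, and Ly6g6g, with 1, also lie in the cluster, and 0 of these were listed. On other chromosomes, 15 family genes had 24 regions, of which 2 were up and 0 were down. The up regions belonged to Cd59a, which encodes an inhibitor of the complement membrane attack complex, with 1 of its 2 regions, and to Lypd6b, with 1 of 8. Plaur, the urokinase receptor gene, had 4 regions, none of them listed.

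Tandem families of NK cell receptors on chromosome 6 offered a second point of comparison. The 11 Ly49 genes, which encode receptors for major histocompatibility complex class I molecules, had 79 regions, of which 1 was up and 4 were down (6.33%, 95% Wilson interval 2.73 to 14.0%). The 10 genes of the NKR-P1, CD94 and NKG2 receptors had 85 regions, of which 4 were down (4.71%, 1.85 to 11.5%). The interval of the Ly6 members, 0 to 11.7%, overlapped both. By gene, 7 of 11 Ly49 genes and 10 of 10 genes of the other family were overlapped by a region, and 1 of 8 Ly6 members. These counts are not matched for length: the Ly49 genes span 13.9 to 48.7 kb and the other family 7.25 to 18.2 kb, against 1.51 to 4.90 kb for the Ly6 members.

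**Figure D5:**
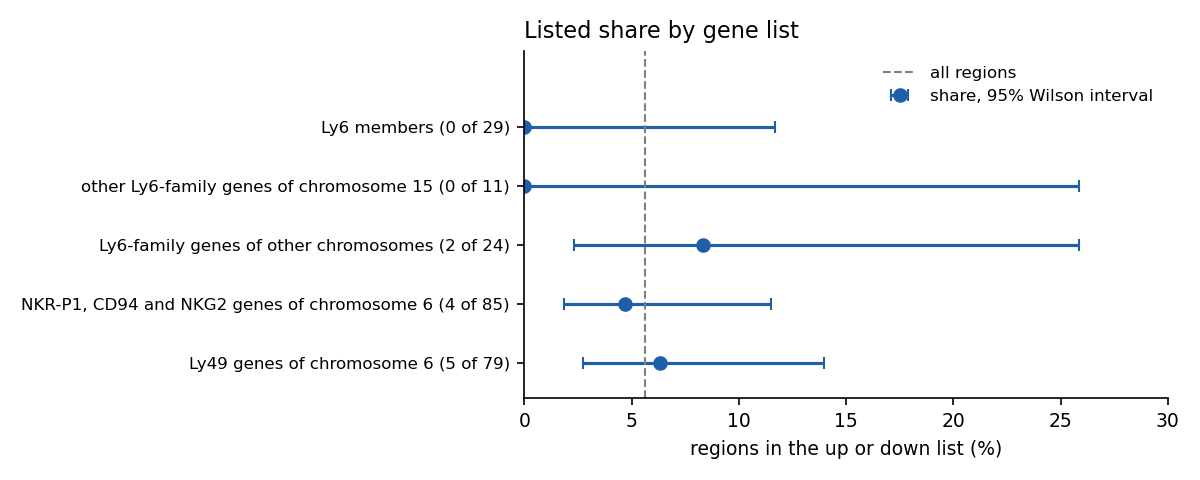
Points give the percentage of each gene list's regions that were in the up or down list, with 95% Wilson intervals that cover counting error only, and the dashed line gives 5.61% for all regions. The Ly6 members stand at 0 of 29, and the interval of each list includes the dashed line.

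The label of the cells was checked against marker genes. A region within 1000 bp of a gene end was present at 6 of 6 NK cell markers (Ncr1, Klrb1c, Eomes, Tbx21, Gzmb and Prf1), at 2 of 4 T cell markers (Cd3e and Cd4), and at 0 of 3 B cell, 0 of 3 monocyte or macrophage and 0 of 3 neutrophil markers. Over all protein-coding genes the share was 60.9%. Farther from the ends, regions were also assigned to markers of other cells: 7 regions to 2 of the 3 B cell markers (6 of them over Pax5), 5 to 2 of the 3 monocyte or macrophage markers and 6 to the 3 neutrophil markers. Ly6g is one of the neutrophil markers, and S100a8 and S100a9 are the others.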

How the data were processed

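ATAC-seq was performed on 4 samples, 2 per dose. The labels call the 2 samples of a dose biological replicates. The 3 deposited tables hold positions in bp of the series as a whole: a list of all regions with start, end and width, and the authors' up and down lists. They contain 0 columns of values per sample. BWA, ArchR, MACS2, HOMER 4.11.1 and the build mm10 are named in the submitters' processing notes, without roles. The pooling of samples before peak calling, the test behind the up and down lists and its threshold are not given in the sources used here.

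Starts of the full list were raised by 1, after which each listed region matched one of the full list exactly. Coordinates are 1-based. Genes, of assembly GRCm38.p6 (the assembly of mm10), and promoter windows came from RefSeq tables, and all 8 members matched by symbol. Left out were 113 protein-coding genes that lie on extra scaffolds, recognised because their starts break the order along the chromosome. Assignment was checked with 2000 simulated regions, each placed just above the upper end of a gene. The code and a slower version of the same rule chose the same gene for 2000 of 2000. Larger distances were not simulated. Python 3.11.15, pandas 2.3.3, numpy 2.4.6 and scipy 1.17.1 were used. Biopython 1.88 aligned promoters globally (match 1, mismatch -1, gap opening -3, extension -1), with identity taken over all alignment columns. Wilson intervals are at 95% and cover counting error only, as does the limit allowed by a count of 0 (3 counts of the total).

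The members and gene lists were chosen with earlier results of these data known. Named are all 8 members, their regions, genes between them, and fixed lists of family, receptor and marker genes. No region or gene was tested for a difference between doses. Alternatives covered the assignment of regions, the minimum width, the overlap that counts as listed and the boundary distance.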

Additional observations from a re-analysis of the deposited data

How the results depend on the processing

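No paired analysis was possible because the data analysed give region positions and nothing for single samples. For the same reason, leaving out a replicate and a stricter threshold on the authors' calls were not run. Distance to start sites was not run either, since the promoter table has them for 3 of the 8 members. For the 6 results recomputed, 31 alternatives were run, of which 4 moved and 27 did not, where a count had to stay within 1.5 times the reported one and the median width within its 95% binomial interval. The number of regions assigned to the members, 29, became 9 with genes of every biotype, since a long non-coding RNA gene was then nearest to 11 regions and a pseudogene to 9, and 17 when every region within 10 kb of a member was counted. It was 41 within 50 kb and 23 for regions of at least 200 bp. The number within 1000 bp of a gene end, 2, became 1 at 100 bp and 8 at 3000 bp, as the definition implies. The counts in the up and down lists and the number of members with a listed region were 0 under every alternative run. These zeros say nothing about stability. The overlap rules could not change them, since listed regions are identical to regions of the full list, and genes of every biotype and the minimum width only remove regions from the 29. The windows of 10 and 50 kb could not reach a listed region, as the nearest to any member was 477.2 kb away, and distance to the nearer gene end assigned 29 regions as before. The median width, 299 bp, ranged from 229 to 432 bp, within the interval that the 29 widths allow for it (229 to 509 bp). Without depth, how small a change in accessibility the authors' lists could have caught is unknown.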
